A study of Bos taurus with 13 samples.

Results

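The NF-kappaB system was followed through 9 genes in whole blood of dairy cows: the cytokine *TNF*, the 5 subunit genes *NFKB1*, *NFKB2*, *REL*, *RELA* and *RELB*, and the 3 inhibitor genes *NFKBIA*, *NFKBIE* and *TNFAIP3*. They were chosen by name, with earlier results of these data known, and make up 9 of the 16095 named genes in the count tables. All 9 had reads in every cow, between 171 (*REL*) and 8369 (*NFKB2*), and all 9 passed the filter on low counts that left 11033 genes for testing.

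NF-kappaB is a family of transcription factors that act as dimers and are held in the cytoplasm of resting cells by inhibitor proteins. Signals from TNF, interleukin-1 and Toll-like receptors activate a kinase complex that marks the inhibitors for degradation, and the freed dimers enter the nucleus and switch on genes of inflammation, including several of their own subunits and inhibitors. In leukocytes the system drives cytokine production, and glucocorticoids such as cortisol are known to restrain it.

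The study ranked lactating cows of 1 farm by the cortisol concentration of their milk and sampled blood of cows from both ends of the ranking. Counts of 13 cows were analysed here, with replicates 1 to 7 in the high group (7 cows) and replicates 8 to 13 in the low group (6 cows). The breed is given as Italian Red Pied in the labels (Italian Simmental in the paper), no animal received a treatment, and the tail-vein blood was collected in PAXgene tubes, which fix RNA at sampling, without depletion of globin RNA. The cows therefore differ in milk cortisol as found, neither age nor the cortisol value of a single cow was given in the sources used for these counts, and the groups hold fewer cows than the 10 in each that the study selected.

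Reads counted on named genes were between 11045599 and 28124575 per cow, at which a count of 0 allows a level of up to 3 counts, or between 0.107 and 0.272 CPM. This limit covers counting error only. Levels are in CPM, the count of a gene relative to the TMM-scaled total of its library. Listed markers of neutrophils (11 of 12 named genes), monocytes (10 of 10), T cells (14 of 14) and B cells (10 of 10) were counted in every cow, and the levels are sums over a mixture of cells, in which fewer cells of a type and less RNA per cell cannot be told apart. High replicate 4 stood apart from the other libraries: it scored 62.4 on the first principal component of all genes tested (29.0% of the variance), and the other 12 cows scored between -31.3 and 19.1. Levels, fold changes and correlations of single genes that move by over 1.5 times or change sign when this library is left out are given with and without it. Haemoglobin and interferon response genes had the following values, of which none passed the adjusted threshold. All 4 haemoglobin genes tested had positive values, 3 of them at an unadjusted p below 0.05 (edgeR). Of all genes tested 0.934% were higher at that threshold. *HBB* was 2.68 higher on the log2 scale in the high group (SE 0.69, unadjusted p = 0.00156 in edgeR's quasi-likelihood test), and *HBQ1* 0.28 (SE 0.29, unadjusted p = 0.355). All 22 interferon response genes tested had negative values, 5 of them at an unadjusted p below 0.05, beside 1.16% of all genes tested that were lower at that threshold.

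The question put to these genes was whether their RNA level differs between cows with high and low milk cortisol. None of the 9 passed the test: at an adjusted p below 0.05 edgeR's test called 0 of 9, beside a background of 0% of the 11033 genes tested (smallest adjusted p 0.998). At an unadjusted p below 0.05 it listed 0 of 9, beside 2.09% (231 genes) of all tested. DESeq2 listed 1 of 9, beside 348 of the 14346 genes that it tested. *TNF* came closest and was higher in the high group, while *RELA* and *NFKB2* had the lowest values relative to the low group. In all, 4 members had a positive and 5 a negative log2 fold change, beside 53.3% of all genes tested with a positive one. Without high replicate 4 the members numbered 1 positive and 8 negative.

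*TNF* encodes tumour necrosis factor, a cytokine of activated monocytes and lymphocytes that is both a product and an inducer of NF-kappaB. The gene lies on chromosome 23 at positions 27533911 to 27536674 of UMD3.1 (minus strand, 4 exons, 1689 bases of exon), 1233 bases from *LTA* and 2047 bases from *LTB*, and shares no exon base with another gene of the count tables. Its level in the high group was 24.3 CPM in the lowest cow, 30.1 at the median and 36.4 in the highest, and in the low group 22.3, 25.2 and 27.7. In all, 5 of 7 high cows lay above every low cow, 3 of 6 low cows lay below every high cow, and the groups overlapped in the range from 24.3 to 27.7 CPM. The means were 29.7 ± 3.92 CPM (SD, n = 7) and 25.2 ± 2.28 CPM (SD, n = 6).

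The log2 fold change of *TNF*, high against low, was 0.24 (SE 0.11), with an unadjusted p of 0.0517 and an adjusted p of 0.998 in edgeR's quasi-likelihood test, where it took place 243 of 11033 genes ordered by p. A two-sided exact permutation test over every division of the cows into groups of 7 and 6, added after the data had been seen, gave p = 0.0256 for the difference in mean log2 CPM (0.23), with an adjusted p of 1 over all genes. That exact test gave p = 0.0476 (difference 0.18) without high replicate 4. By that test 1 of 9 members lay below 0.05, beside 2.02% of all genes tested. The choice of *TNF* was not independent of these data. Without high replicate 4, which had the highest *TNF* level, the log2 fold change was 0.18 (unadjusted p = 0.102, edgeR). With the log2 share of haemoglobin reads as a covariate it was 0.19 (unadjusted p = 0.222), and with the neutrophil minus T cell score as a covariate 0.20 (unadjusted p = 0.0934).

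**Figure D1:**
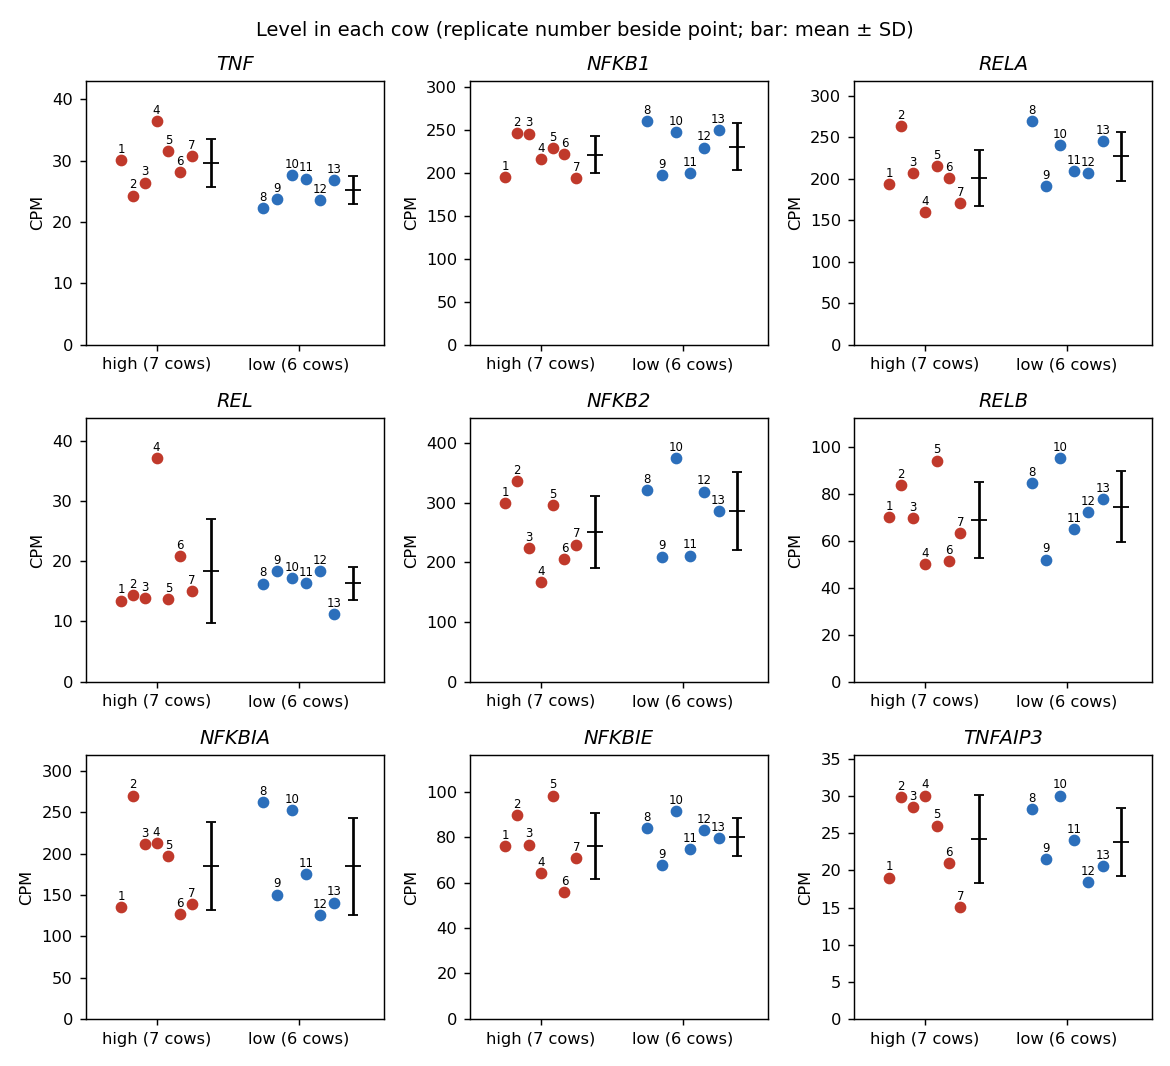
CPM of each of the 9 genes (vertical axes start at 0) in the 7 high cows (red) and the 6 low cows (blue), with the replicate number beside each point and the group mean ± SD as a black bar. The groups overlap for every gene, 5 of 7 high cows lie above all low cows for *TNF*, and high replicate 4 stands alone for *REL* at 37.0 CPM.

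*NFKB1* encodes p105, the precursor of p50, the subunit that pairs with RELA in the classical dimer. The gene lies on chromosome 6 at 23557311 to 23679508 (minus strand). Its level ranged from 194 to 246 CPM in the high group (median 222) and from 198 to 260 CPM in the low group (median 239). The highest 3 low cows lay above every high cow, and the log2 fold change was -0.06 (SE 0.10, unadjusted p = 0.540, edgeR). *NFKB1* was the steadiest member over the 13 cows, with a coefficient of variation of 10.4%, and its SD of log2 CPM (0.15) was at percentile 8.03 of all genes tested.

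*RELA* encodes p65, the main activating subunit of the classical pathway, and lies on chromosome 29 at 44496359 to 44505000 (minus strand). The high group held 160, 200 and 263 CPM at its lowest, median and highest cow, and the low group 191, 225 and 269 CPM. Of the high cows 6 of 7 lay below the low median, although the ranges overlapped from 191 to 263 CPM. The log2 fold change was -0.17 (SE 0.12, unadjusted p = 0.170, edgeR). With the haemoglobin covariate it was -0.01, and without high replicate 2 it was -0.24 (unadjusted p = 0.0405).

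*REL* encodes c-Rel, a subunit used mainly in lymphoid and myeloid cells, and lies on chromosome 11 at 43500946 to 43527753 (plus strand). Its high group values were 13.5, 14.3 and 37.0 CPM at the lowest, median and highest cow, and its low group values 11.2, 16.8 and 18.4 CPM. Only high replicate 4 (37.0 CPM) and high replicate 6 (20.9 CPM) exceeded every low cow, and 5 of 7 high cows lay below the low median. The log2 fold change was 0.17 with all cows (SE 0.23, unadjusted p = 0.480) and -0.10 without high replicate 4 (unadjusted p = 0.508, edgeR), so 1 library set its sign.

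*NFKB2* and *RELB* encode p100 (the precursor of p52) and RelB, the pair of the alternative pathway, which B cell and lymphotoxin receptors activate through the kinase NIK. *NFKB2* (chromosome 26, 22891378 to 22898307, plus strand) had 167, 230 and 336 CPM in the lowest, median and highest high cow and 209, 302 and 374 CPM in the low group. *RELB* (chromosome 18, 53099825 to 53127762, plus strand) had 50.2, 69.8 and 94.2 CPM in the high group and 52.1, 75.0 and 95.1 CPM in the low group. For both genes the lowest cow was high replicate 4 and the highest was low replicate 10, and the groups overlapped over most of their range. The log2 fold changes were -0.19 for *NFKB2* (SE 0.17, unadjusted p = 0.287) and -0.11 for *RELB* (SE 0.16, unadjusted p = 0.499, edgeR). Either extreme library moved both by over 1.5 times: without high replicate 4 they were -0.11 and -0.048, and without low replicate 10 they were -0.096 and -0.028. With the haemoglobin covariate *NFKB2* had 0.013 and *RELB* -0.027.

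*NFKBIA* encodes IkappaB-alpha, the inhibitor that is degraded first on activation and is then made again as a direct NF-kappaB target. The gene lies on chromosome 21 at 46065549 to 46068942 (minus strand). Its levels were 127, 197 and 270.5 CPM in the lowest, median and highest high cow and 126, 163 and 262 CPM in the low group. Both groups spanned a similar range, and the highest cow exceeded the lowest 2.13 times in the high and 2.09 times in the low group. The means were 185 ± 53.1 CPM (SD, n = 7) and 185 ± 59.0 CPM (SD, n = 6), and the log2 fold change was 0.00 (SE 0.21, unadjusted p = 0.999, edgeR) and -0.039 without high replicate 4.

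*NFKBIE* encodes IkappaB-epsilon, a second cytoplasmic inhibitor that binds RELA and c-Rel dimers, and lies on chromosome 23 at 17879935 to 17887291 (minus strand). Its levels were 55.8, 76.2 and 98.4 CPM in the lowest, median and highest high cow and 67.8, 81.4 and 91.6 CPM in the low group. The low range lay inside the high range, and the log2 fold change was -0.08 (SE 0.12, unadjusted p = 0.550, edgeR) and -0.040 without high replicate 4.

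*TNFAIP3* encodes A20, a ubiquitin-editing enzyme that shuts down signalling from the TNF receptor upstream of the kinase complex. The gene lies on chromosome 9 at 76766557 to 76776874 (plus strand). Its levels were 15.1, 26.0 and 30.1 CPM in the lowest, median and highest high cow and 18.5, 22.8 and 30.1 CPM among low cows. The log2 fold change was 0.02 (SE 0.17, unadjusted p = 0.912, edgeR), smaller than its standard error, and -0.042 without high replicate 4.

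**Figure D2:**
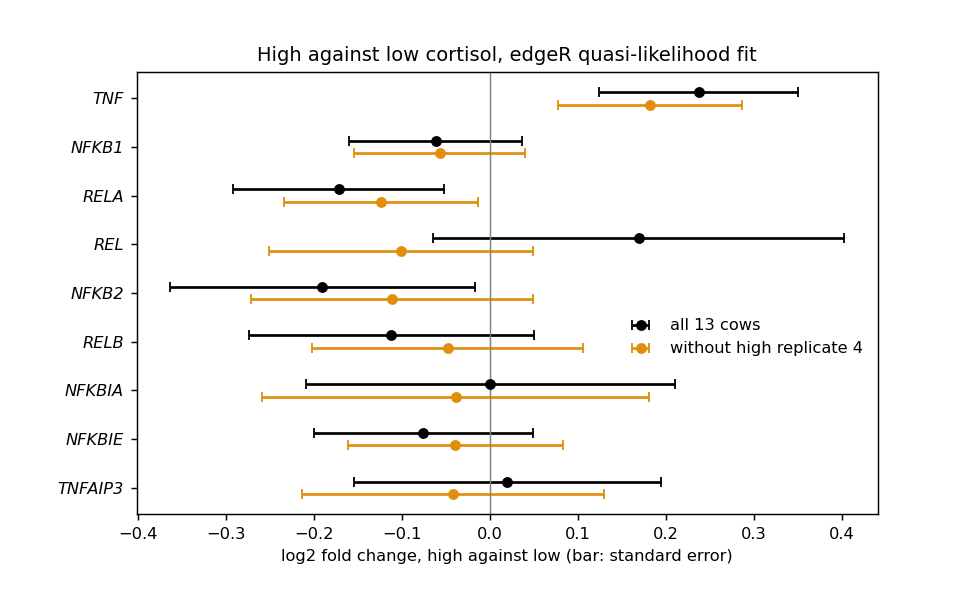
Log2 fold change of each gene, high against low (horizontal axis), with its standard error, from edgeR's fit to all 13 cows (black) and to 12 cows without high replicate 4 (orange). *TNF* lies above 0 in both fits (0.24 and 0.18), *REL* moves from 0.17 to -0.10, and the other 7 genes lie between -0.19 and 0.02 with all cows.

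The other genes of the pathway were described from lists of receptors, kinases, inhibitors and targets. Over all 11033 genes, 0.934% were higher and 1.16% lower in the high group at an unadjusted p below 0.05, and the median log2 fold change was 0.01. Among receptors and adaptors 0 of 24 genes tested met that threshold (median log2 fold change -0.01), and the smallest p belonged to the lipopolysaccharide receptor *TLR4* (-0.35, SE 0.20) and the interleukin-1 receptor *IL1R1* (0.38, SE 0.22). Among kinases it was 0 of 11 (median 0.02), led by *MAP3K8* (0.30, SE 0.16), which encodes the kinase TPL2 that is bound by p105, and *MAP3K7* (0.24, SE 0.22), which encodes TAK1. Of 9 genes of antigen receptor signalling and linear ubiquitin none met it (median -0.05), with *MALT1* at 0.26 (SE 0.18) and *RBCK1*, a subunit of the linear ubiquitin ligase, at -0.20 (SE 0.17). Values without high replicate 4 were 0.042 for *MAP3K7*, 0.071 for *MALT1* and -0.12 for *RBCK1*.

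Of the 17 other inhibitors 1 was lower at an unadjusted p below 0.05 (median log2 fold change -0.07), *PIAS1*, a SUMO ligase that dampens NF-kappaB (-0.23, SE 0.11, unadjusted p = 0.0479, edgeR). The A20 partner *TNIP1* had a value of -0.27 (SE 0.19). The target list held 42 genes, of which 31 were named in the count tables and 28 were tested. *CXCL8*, *IL6* and *ICAM1* were among those not tested. Of the 28 target genes tested 2 were higher and 1 lower at that threshold (median -0.02): the apoptosis inhibitor *XIAP* (0.94, SE 0.41, unadjusted p = 0.0345), the prostaglandin synthase *PTGS2* (0.98, SE 0.45, unadjusted p = 0.0459) and the adhesion molecule *SELE* (-0.69, SE 0.28, unadjusted p = 0.0267). Without high replicate 4 the values of *XIAP* and *PTGS2* were 0.37 (unadjusted p = 0.159) and 0.52 (unadjusted p = 0.179), *PIAS1* had -0.19 (unadjusted p = 0.0778), and of the 3 targets *SELE* still lay below 0.05 (-0.62, unadjusted p = 0.0466, edgeR). No gene of these lists passed the adjusted threshold.

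Genes that make or handle TNF held 0 of 10 at an unadjusted p below 0.05 (median log2 fold change -0.04), with *LITAF*, a factor named for lipopolysaccharide-induced TNF, at -0.26 (SE 0.16) and the RNA-binding protein gene *ZFP36L2* at 0.36 (SE 0.26), which was 0.096 without high replicate 4. Genes that glucocorticoids are known to induce, listed together with their receptor gene *NR3C1*, held 0 of 13 (median 0.03). The phosphatase gene *DUSP1* had -0.28 (SE 0.16) and *ZBTB16* 0.58 (SE 0.34), so the lead genes of that list pointed in opposite directions. Immediate-early genes held 0 of 14 (median 0.05), with *IER3* at -0.28 (SE 0.17) and *ATF3* at -0.29 (SE 0.21). The medians of these 8 lists lay between -0.08 and 0.0028 without high replicate 4.

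Levels of different genes were compared per exon length, as RPKM, the CPM divided by the kilobases of exon. The inhibitor *NFKBIA* had the highest level, 117 ± 34.0 RPKM (SD, n = 13), followed by *NFKB2* (89.6 ± 21.1), *RELA* (84.5 ± 13.2), *NFKB1* (57.6 ± 6.01), *NFKBIE* (41.6 ± 6.28), *RELB* (39.2 ± 8.36), *TNF* (16.3 ± 2.31), *TNFAIP3* (10.3 ± 2.18) and *REL* (9.54 ± 3.53). Of the 8 neighbouring pairs in this order 6 passed an exact two-sided sign-flip permutation test over the 13 cows (log2 RPKM, adjusted over the 8). *NFKB2* and *RELA* did not differ beyond their spread (difference 0.06 on the log2 scale, SD 0.23, higher in 7 of 13 cows, adjusted p = 0.350), nor did *TNFAIP3* and *REL* (0.14, SD 0.46, 8 of 13 cows, adjusted p = 0.342, and a difference of 0.20 without high replicate 4). *RELA* exceeded *NFKB1*, *NFKB1* exceeded *NFKBIE*, *RELB* exceeded *TNF* and *TNF* exceeded *TNFAIP3* in 13 of 13 cows. The step from *RELB* to *TNF* was the widest, 1.24 on the log2 scale (SD 0.41).

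**Figure D3:**
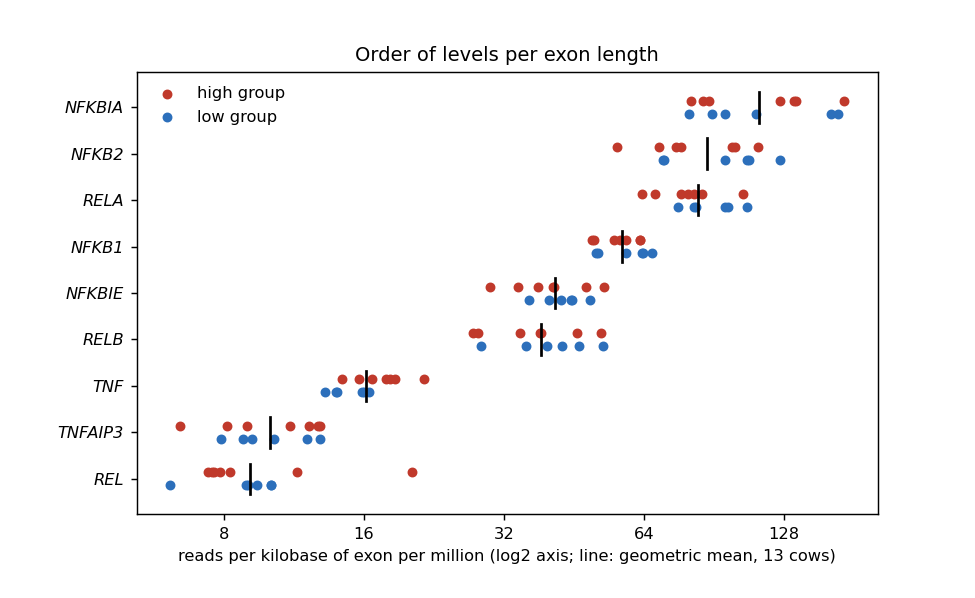
RPKM of each gene on a log2 axis, 1 point per cow (high red, low blue), with the geometric mean over 13 cows as a line and the genes in order of it. *NFKBIA* to *RELB* overlap with their neighbours, and a gap of 1.24 on the log2 scale separates the means of *RELB* and *TNF*.

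The members differed in how far they spread over the cows. By SD of log2 CPM, *REL* (0.42, percentile 68.9 of all genes tested) and *NFKBIA* (0.41, percentile 68.1) had the widest spread with all cows, and *NFKB1* (percentile 8.03), *TNF* (0.20, percentile 19.5), *NFKBIE* (0.22, percentile 27.7) and *RELA* (0.22, percentile 28.1) varied less than the median gene (0.31). Without high replicate 4 the SD of *REL* was 0.25 (percentile 43.3), below the median gene (0.27) and below *NFKBIA* (0.42, percentile 75.5), *TNFAIP3* (0.32), *NFKB2* (0.31) and *RELB* (0.29). With all cows *RELB*, *TNFAIP3* and *NFKB2* were near the median gene, at percentiles 52.1, 53.5 and 58.7. Without high replicate 4 they were at 54.7, 59.4 and 57.2. The coefficient of variation of *REL* was 47.1% in the high group with replicate 4, 18.6% without it, and 16.4% in the low group. Percentiles of SD are a description, since genes with few counts also vary by counting.

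Co-variation of the members was measured as the correlation of log2 CPM over the 13 cows, for all 36 pairs, with permutation p from 100000 resamples and adjustment over the 36. Of the 36 pairs 7 passed, all positive. They joined *NFKB2*, *RELB* and *NFKBIE*, *RELA* with *NFKB1*, *NFKB2* and *RELB*, and *NFKBIA* with *TNFAIP3*, and no pair with *REL* or *TNF* passed. The median r over the 36 pairs was 0.36 (jackknife SE 0.18), beside -0.0025 over all 60858028 pairs of tested genes. An r of 0.7 was reached by 19.4% of member pairs (7 of 36), beside 4.42% of all pairs. The 36 pairs share the same 9 genes, and the pairs of all genes were not matched to them in level. The points share library, depth and cell makeup, and no member's relation with depth passed the test (largest absolute r 0.41, for *RELB*, adjusted permutation p = 0.611). The part of depth in the correlations between members was not tested.

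*RELB* and *NFKBIE*, on different chromosomes, had the highest correlation of all member pairs: r = 0.94, rho = 0.97, adjusted permutation p = 0.00036, for which the unadjusted p of 1e-05 is the smallest that the resampling can give. Among all 11032 other genes tested, *NFKBIE* was the gene most correlated with *RELB*, and *RELB* the gene most correlated with *NFKBIE*. The correlation was 0.97 within the 7 high cows, 0.96 within the 6 low cows, and 0.94 without the 2 cows farthest from the *RELB* median. Low replicate 10, high replicate 5, low replicate 8 and high replicate 2 held the 4 highest *RELB* levels, and high replicates 4 and 6 and low replicate 9 the 3 lowest, so cows of both groups stood at both ends. *NFKB2* followed both, with r = 0.89 for *RELB* (rho = 0.90, adjusted permutation p = 0.0009) and r = 0.82 for *NFKBIE* (rho = 0.86, adjusted permutation p = 0.0045). Without the 2 cows farthest from the *NFKB2* median these were 0.82 and 0.79. Ordered by r with *NFKB2* over all genes tested, *RELB* took place 24 and *NFKBIE* place 177.

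*NFKBIA* and *TNFAIP3*, the 2 fast feedback inhibitors, formed the second pair, with r = 0.89, rho = 0.88 and an adjusted permutation p of 0.0012. *NFKBIA* was the gene most correlated with *TNFAIP3* among 11032, and *TNFAIP3* was the fifth for *NFKBIA*. The correlation was 0.86 within the high and 0.98 within the low group, and 0.89 without the 2 cows farthest from the *NFKBIA* median (high replicate 2 and low replicate 8). High replicates 2, 3, 4 and 5 and low replicates 8 and 10 had the highest levels of both genes, and high replicates 1, 6 and 7 and low replicates 12 and 13 were at the low end of both.

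The inhibitor *NFKBIE* thus varied with the alternative-pathway genes and the inhibitors *NFKBIA* and *TNFAIP3* with each other, while the 6 correlations between the 2 sets were lower: 0.11 for *NFKB2* with *TNFAIP3*, 0.29 for *NFKB2* with *NFKBIA*, 0.32 for *RELB* with *TNFAIP3*, 0.33 for *NFKBIE* with *TNFAIP3*, 0.50 for *RELB* with *NFKBIA* and 0.51 for *NFKBIE* with *NFKBIA*, none of which passed. The difference between these correlations was not tested. High replicate 4, which was low for *NFKB2* and *RELB* and among the higher cows for *NFKBIA* and *TNFAIP3*, bore on all 6. Without it they were, in the same order, 0.37, 0.48, 0.56, 0.51, 0.67 and 0.62. *NFKBIA* and *TNFAIP3* then had correlations of 0.72 and 0.74 with *RELA*, beside 0.50 and 0.42 with all cows.

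*RELA* was correlated with its dimer partner *NFKB1* (r = 0.77, rho = 0.85, adjusted permutation p = 0.0174), and r was 0.69 within the high and 0.90 within the low group. Without the 2 cows farthest from the *NFKB1* median it was 0.72. *RELA* was also correlated with *NFKB2* (r = 0.75, rho = 0.68) and *RELB* (r = 0.75, rho = 0.82), both at an adjusted permutation p of 0.0177. Without the 2 cows farthest from the median both were 0.65. Those 2 relations rested in part on high replicate 4, without which r was 0.65 and 0.67 and the adjusted permutation p 0.0765 and 0.0677.

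*REL* had negative r with *RELB* (-0.62, rho = -0.53), *NFKB2* (-0.58, rho = -0.42), *RELA* (-0.55, rho = -0.44) and *NFKBIE* (-0.54, rho = -0.51), of which none passed (smallest adjusted permutation p = 0.0647). Without high replicate 4 they were -0.48, -0.26, -0.23 and -0.46. *TNF* was not correlated with any member beyond the threshold. Its r values ran from -0.66 with *RELA* (rho = -0.49, adjusted permutation p = 0.0630) to 0.38 with *REL*. The first was -0.83 within the high group and 0.00 within the low group, -0.50 without high replicate 4, and -0.32 without the 2 cows farthest from the *RELA* median. The second was -0.30 without high replicate 4. With the feedback inhibitors, the r of *TNF* was -0.10 for *NFKBIA* and -0.02 for *TNFAIP3*, and -0.29 and -0.31 without high replicate 4.

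**Figure D4:**
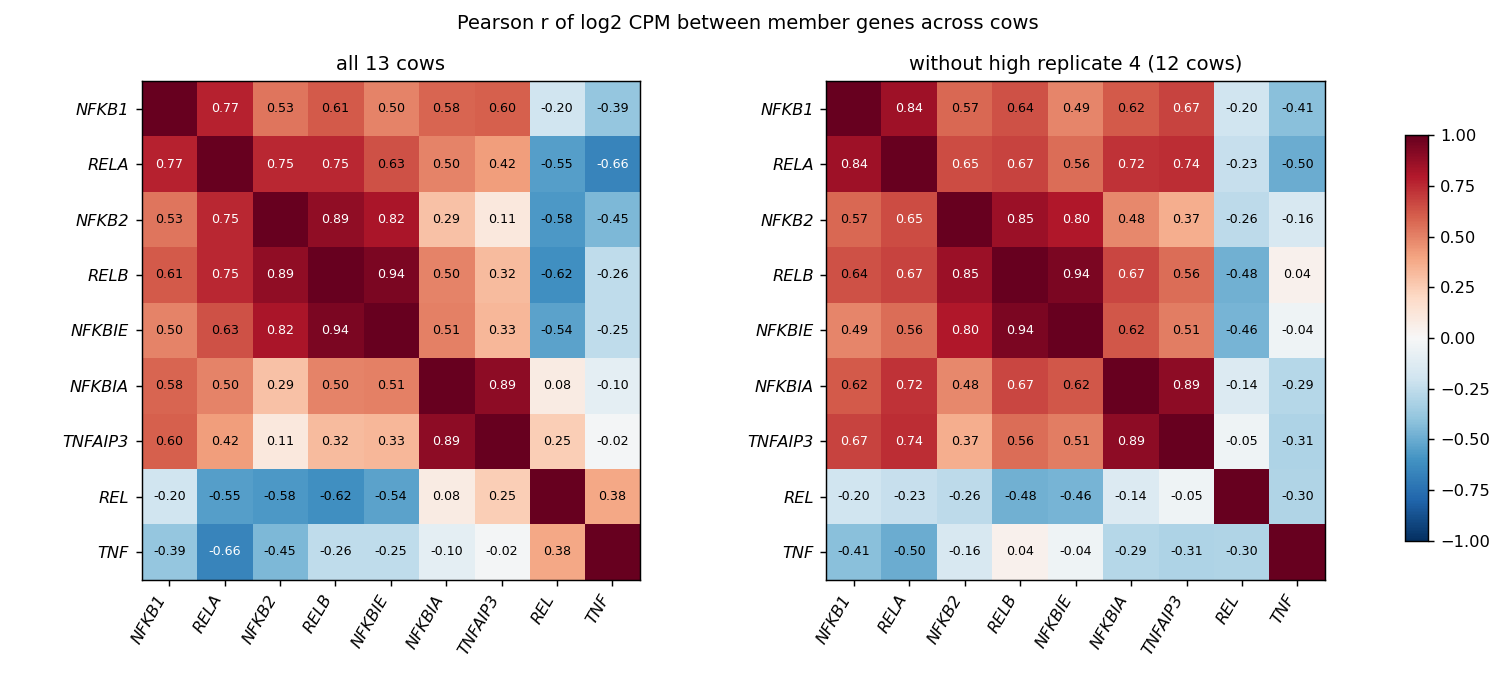
Pearson r of log2 CPM over cows for the 36 pairs of members (red positive, blue negative, scale -1 to 1), with all 13 cows (left) and with 12 cows without high replicate 4 (right). *NFKB2*, *RELB* and *NFKBIE* form a block (0.82 to 0.94, left), and *NFKBIA* and *TNFAIP3* a pair (0.89 in both panels). The negative values of *REL* with *RELB*, *NFKB2*, *RELA* and *NFKBIE* are smaller in size on the right. Its positive values with *NFKBIA* (0.08), *TNFAIP3* (0.25) and *TNF* (0.38) turn negative there (-0.14, -0.05 and -0.30).

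For each member, the 3 tested genes with the most similar pattern over the 13 cows were listed by Pearson r, as a description. Beside *NFKBIE*, *RELB* was nearest to *RBCK1* (0.93) and *OGFR* (0.92), and *NFKBIE* to *TMEM120A* (0.91) and *COPS7A* (0.91). *NFKBIA* was nearest to *TXNIP* (0.95), *CMKLR1* (0.90) and *PPP1R3D* (0.90), and *TNFAIP3*, after *NFKBIA*, to *RTN3* (0.89) and *TXNIP* (0.89). *TXNIP*, which encodes an inhibitor of thioredoxin, was thus near both feedback inhibitors.

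*NFKB2* was nearest to *ARSA* (0.97), *CD81* (0.95) and *SIPA1L1* (0.95), *RELA* to *LRP10*, *PLBD2* (both 0.98) and *TBC1D10B* (0.97), and *NFKB1* to the splicing factor genes *PRPF8* (0.92) and *SNRNP200* (0.90) and the kinase gene *STK10* (0.92). *REL* was nearest to *ITPR2*, *ARID2* and *OTUD4* (all 0.96), and *TNF* to *BEND3* (0.91), *ZYG11B* (0.90) and *WDCP* (0.87). Leaving out high replicate 4 lowered the values of the last 2 members' genes, to between 0.87 and 0.89 for *REL* and between 0.78 and 0.85 for *TNF*.

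The members were last set against scores of 6 marker lists, each the average of its genes' log2 CPM after centring every gene on its mean over the cows. None of the scores passed an exact two-sided permutation test of high against low adjusted over the 6 (smallest adjusted p = 0.466). The widest difference, high minus low, was -0.70 for the interferon response list, with scores from -0.85 to 1.09 in the high and from -0.39 to 1.46 in the low group. The neutrophil score differed by -0.21 and the B cell score by 0.24. Summed neutrophil markers ranged from 6113 to 12070.1 CPM in the high group and from 9037 to 12619 CPM in the low group. With the neutrophil minus T cell score as a covariate 0 of 9 members had an unadjusted p below 0.05 in edgeR's test, beside 223 of 11033 genes tested.

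Of the 54 relations between a member and a score, 2 passed after adjustment over the 54, both with the immediate-early score, the mean of 14 genes such as *FOS*, *JUN* and *EGR1* that cells switch on within minutes of a stimulus. *TNFAIP3* had r = 0.89 (rho = 0.86, adjusted permutation p = 0.00162) and *NFKBIA* r = 0.81 (rho = 0.88, adjusted permutation p = 0.0267). Both relations were seen in each group: 0.95 in the high and 0.78 in the low group for *TNFAIP3*, and 0.84 and 0.78 for *NFKBIA*. Without the 2 cows farthest from the median score they were 0.82 and 0.85, and without high replicate 4 they were 0.88 and 0.81. The immediate-early score itself had a high minus low difference of -0.02 (exact permutation p = 0.910), or -0.07 without high replicate 4, and ranged from -0.43 to 0.32 in the high and from -0.34 to 0.26 in the low group.

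The other members' r with the immediate-early score lay between -0.01 (*TNF*) and 0.60 (*NFKB1*, adjusted permutation p = 0.184), with 0.25 for *NFKBIE* and 0.26 for *RELB*. Without high replicate 4 it was -0.37 for *TNF*, 0.47 for *NFKBIE* and 0.55 for *RELB*. For *RELA* it was 0.44 with all cows and 0.85 without high replicate 4. The interferon response score had r between 0.61 and 0.69 with *NFKB1*, *NFKB2*, *RELA*, *RELB* and *NFKBIE*, none of which passed (smallest adjusted permutation p = 0.126). *TNF* had r = -0.57 with the neutrophil score (rho = -0.67, adjusted permutation p = 0.206), which was -0.44 without the 2 cows farthest from the median score and -0.79 without high replicate 4.

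**Figure D5:**
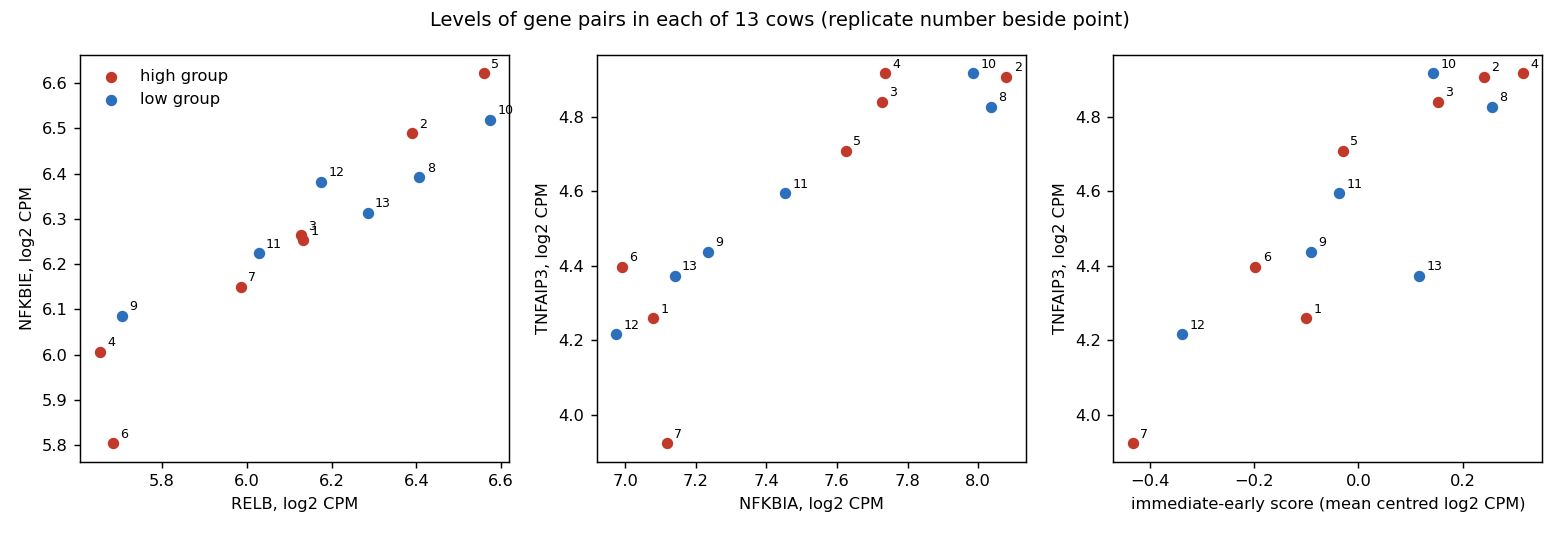
Log2 CPM of *NFKBIE* against *RELB* (left), of *TNFAIP3* against *NFKBIA* (middle), and of *TNFAIP3* against the immediate-early score (right), 1 point per cow with its replicate number (high red, low blue). The points rise together in each panel (r = 0.94, 0.89 and 0.89), with high and low cows mixed along the line.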

How the data were processed

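Whole blood RNA of 13 cows was analysed from the gene counts that the authors deposited, whole numbers of reads per gene name without normalization. The file headers name featureCounts 1.4.6-p3 with exons summed by gene name and the UMD3.1 gene models, and no strand option, while the submitters' processing notes give STAR 2.7.3, Subread 1.6.5 and ARS-UCD1.2. Positions and exon lengths are from the count tables. Each header also names an animal number that differs from that in the table's name, so groups rest on the labels alone. Genes without a name share 1 entry, which held 13.9% to 16.7% of counts and was left out.

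Counts were scaled with TMM factors and expressed as CPM, with a prior count of 2 on the log2 scale. The test of high against low was that of edgeR 4.0.16 (robust quasi-likelihood fit, no covariates, filterByExpr with minimum count 10) in R 4.3.3, with Benjamini-Hochberg adjustment over all genes tested. DESeq2 1.42.0, limma-voom (limma 3.58.1), other scalings and filters, covariates and each cow left out in turn were alternatives. Permutation tests used numpy 2.4.6 and scipy 1.17.1. Tests were tried on simulated data first. Each cow was taken as 1 replicate, from the labels.

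The members, gene lists, tests and named genes were chosen with earlier results of these data known. Named genes are the 9 members, from each pathway list those at an unadjusted p below 0.05 or else the 2 with the smallest p, and the 3 genes nearest to each member by r. Other genes were named after their values were seen. No sequence or genome of this build was used here. Methylation data were not analysed here.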

Additional observations from a re-analysis of the deposited data

Results flagged for a closer look

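The level of *REL* was checked with those of the other 8 members for a cow that lies far from the rest of its group, in 18 groups (9 genes, high and low). Both cows that stood out did so for *REL*. High replicate 4 had 37.0 CPM, and the other high cows lay between 13.5 and 20.9 CPM. Low replicate 13 had 11.2 CPM, and the other low cows lay between 16.3 and 18.4 CPM. Dixon's test flags about 1 in 20 such groups by chance, which makes 0.9 of 18. High replicate 4 is also the library that stood apart on the first principal component, and low replicate 13 had the lowest score on it (-31.3). The part of library differences in these 2 values was not tested.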

How the results depend on the processing

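The count of genes called was 0 under every setting other than DESeq2, which called 1 gene that is no member, *CYP4X1*, with 0 counts in 11 of 13 cows. Members at an unadjusted p below 0.05 numbered 1 with DESeq2, 1 with upper-quartile factors and 1 with at least 10 counts in every cow, each time *TNF*. All genes at that threshold numbered 348 of 14346, 230 of 11033 and 197 of 10082 in these fits. With 1 cow left out, members at that threshold numbered 0 to 2. They were *TNF* and *RELA* without high replicate 2 (beside 373 of 10979 genes), and *TNF* alone without high replicate 3 (209 of 11021) or low replicate 10 (204 of 11131). The log2 fold change of *TNF* stayed positive throughout, from 0.19 to 0.25 over the 10 other fits (unadjusted p from 0.0405 to 0.222) and from 0.18 to 0.29 with 1 cow left out (unadjusted p from 0.0200 to 0.102). Some log2 fold changes changed sign: *NFKB1* (-0.06 with all cows) to 0.027 and *NFKB2* (-0.19) to 0.013 with the haemoglobin covariate, *NFKBIA* to -0.0034 with DESeq2, -0.0031 with RLE factors and -0.0006 with at least 10 counts in every cow, and *TNFAIP3* to -0.040 with limma-voom. With 1 cow left out they ran from -0.11 to 0.13 for *NFKBIA*, from -0.043 to 0.11 for *TNFAIP3* and from -0.10 to 0.23 for *REL*, and without a change of sign from -0.27 to -0.10 for *NFKB2*, from -0.20 to -0.028 for *RELB*, from -0.24 to -0.11 for *RELA*, from -0.15 to -0.013 for *NFKBIE* and from -0.10 to -0.019 for *NFKB1*. The causes were not tested.

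The count of correlated member pairs was 7 with all cows, 11 after the neutrophil minus T cell score was regressed out, and 7 to 10 with 1 cow left out. Without high replicate 4 the count was again 7, but not of the same pairs. Then 2 pairs were lost, *RELA* with *NFKB2* and with *RELB*, and 2 others passed. No pair that passed changed sign. By Spearman's rho 1 pair was lost and 1 other passed. *NFKB2* with *RELA* missed the threshold (rho = 0.68, adjusted permutation p = 0.0550). *RELA* with *NFKBIE* passed it (rho = 0.77, adjusted permutation p = 0.0148), while its r of 0.63 had not (adjusted permutation p = 0.0720). The median r ran from 0.30 to 0.50 with 1 cow left out, highest without high replicate 4. The order of levels per length was the same in all 15 settings. No paired analysis was possible because the groups hold different cows and the labels give no pairs.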

Other observations

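Ratios between members were computed per cow from levels per exon length, as values only. The level of *NFKBIA* was 1.02 to 2.14 times that of *RELA* in the high group (median 1.47) and 0.923 to 1.69 times in the low group (median 1.30). The level of *NFKBIE* was 0.375 to 0.616 times that of *RELA* in the high group and 0.420 to 0.544 times in the low group. For *NFKB2* against *NFKB1*, the precursors of p52 and p50, the ratio was 1.01 to 2.01 in the high group and 1.39 to 1.98 in the low group, with medians of 1.56 in both. For *REL* against *RELA* it was 0.0751 to 0.320 in the high group (median 0.0962) and 0.0632 to 0.133 in the low group (median 0.104). High replicate 4 held the highest ratio of *REL* to *RELA* and of *NFKBIA* to *RELA*, and the lowest of *NFKB2* to *NFKB1*. The 2 groups overlapped for each of these ratios, and none was tested.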
